A study of Mus musculus with 18 samples.

Results

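Siglecs are receptors of the immunoglobulin superfamily that bind sialic acids on the sugars of glycoproteins and glycolipids. The 5 genes described here, Siglecg, Siglece, Cd33, Siglech and Siglec1, were taken by symbol from a table of 55536 genes measured in 18 samples of striatal microglia. With Tyrobp deleted, Siglecg was 3.96-fold higher over both Htt genotypes. In normalized counts all 8 samples lacking Tyrobp lay above all 10 samples with it, a separation found upward in 0.0215% of the genes tested. This separation depended on the scaling of the libraries, through Tyrobp-KO replicate 20. None of the other 4 passed the main edgeR test in any comparison. DESeq2, which called 1.1% of all genes over both Htt genotypes, also called Cd33 and Siglece there. With sex as a term in DESeq2 Cd33 was still called and Siglece was not. Siglece stood higher and Cd33 lower in value without Tyrobp, and Q175 moved no member past the test.

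Microglia were enriched from the striatum of adult mice with magnetic beads against CD11b, a surface integrin of myeloid cells, so any CD11b-positive cell could be included. The 4 groups were WT (n = 5), Tyrobp-KO (n = 3), Q175 (n = 5) and Q175;Tyrobp-KO (n = 5), all C57BL/6 in the labels. Q175 mice were heterozygous for a knock-in that puts an expanded CAG repeat into the mouse Huntingtin gene Htt, a model of Huntington's disease; both Tyrobp-KO groups lacked Tyrobp from the germline in every cell, on both alleles per the study's description. The labels give 2 striata for each sample and the methods 1, and the labels do not say that samples are separate mice, so p-values measure the spread between these samples.

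Siglecs fall into types that differ in how they signal. Siglece, Siglecg and the human form of Cd33 carry inhibitory tyrosine motifs in the cytoplasmic tail, which recruit phosphatases such as Ptpn6 (SHP-1). Siglech lacks such motifs and pairs in the membrane with TYROBP (DAP12), the adaptor deleted here, which recruits the kinase SYK through an activating motif. Siglec1 (sialoadhesin, CD169) has a long extracellular part, acts mainly in adhesion and is induced by interferon in macrophages. In mouse brain Siglech is widely used as a marker of microglia, while Siglecg is best known from B cells, where it restrains receptor signalling.

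Of the 5 genes, 4 lie on chromosome 7, as does Tyrobp (GRCm38 chr7:30413760-30417585). Siglecg (ENSMUSG00000030468, chr7:43408204-43418358, plus strand), Cd33 (ENSMUSG00000004609, chr7:43524216-43544428, minus strand) and Siglece (ENSMUSG00000030474, chr7:43651070-43660161, minus strand) sit together, 12.991, 13.107 and 13.233 Mb from Tyrobp. Siglech (ENSMUSG00000051504, chr7:55768178-55778925, plus strand) lies 25.351 Mb from Tyrobp, and Siglec1 (ENSMUSG00000027322, chr2:131069220-131086765, minus strand) is on chromosome 2. No annotated gene overlaps any of the 5. Of the 50-base stretches of their exons, 0% for Siglece, 0.389% for Siglech, 0.458% for Cd33, 1.33% for Siglec1 and 4.64% for Siglecg also occur in exons of another gene, so reads of these genes were mostly assignable to 1 locus.

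The bases just upstream of the RefSeq transcription starts of Siglecg, Siglece and Cd33 are shown because these are the genes whose levels differed most in the groups without Tyrobp. For Cd33 the RefSeq start used lies inside the annotated gene span, while for Siglecg and Siglece it is at the 5′ end of the span. Capitals mark GGAA or its complement TTCC, the core of sites bound by ETS factors, a family that includes PU.1, the myeloid regulator. Bases inside annotated exons were removed, and the sequences read 5′ to 3′ on the strand of the gene (RefSeq, GRCm38.p6: Siglecg chr7:43407989-43408203, plus; Siglece chr7:43660162-43660411, minus; Cd33 chr7:43533172-43533364, minus).
Siglecg: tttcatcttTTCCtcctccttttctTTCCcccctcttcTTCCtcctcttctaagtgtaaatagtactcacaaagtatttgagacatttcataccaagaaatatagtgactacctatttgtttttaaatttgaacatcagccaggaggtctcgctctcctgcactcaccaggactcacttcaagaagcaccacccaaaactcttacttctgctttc
Siglece: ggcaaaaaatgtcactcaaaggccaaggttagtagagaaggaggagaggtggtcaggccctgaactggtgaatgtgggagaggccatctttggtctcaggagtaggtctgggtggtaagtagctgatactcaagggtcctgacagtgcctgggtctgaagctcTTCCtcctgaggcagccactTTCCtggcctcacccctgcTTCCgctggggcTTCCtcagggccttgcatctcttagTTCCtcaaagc
Cd33: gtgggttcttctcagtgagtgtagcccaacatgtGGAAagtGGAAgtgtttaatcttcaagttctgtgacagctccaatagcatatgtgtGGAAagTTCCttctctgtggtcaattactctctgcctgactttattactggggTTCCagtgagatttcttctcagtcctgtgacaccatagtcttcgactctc
Over the full 250 bases upstream, which include the removed exon bases, GGAA or TTCC was found 3 times for Siglecg, 5 for Siglece, 7 for Cd33 and 4 for Siglech, with both strands counted. Of the 7 for Cd33, 5 lie in the stretch printed. Of 27025 genes searched over the same length, 54.8% held at least 3, 18% at least 5 and 3.77% at least 7. The motifs GAGGAAGT, TGANTCA and TATAAA were found in none of the windows of Siglecg, Siglece, Cd33 and Siglech. GGAAGT, which contains the GGAA core, was found once each for Cd33 and Siglech and in the windows of 20% of genes.

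Cd33 and Siglecf, a neighbouring Siglec known from eosinophils, share a 16-base stretch upstream of the RefSeq starts used, that of Cd33 lying inside its annotated gene span. The stretch is printed here in capitals because both genes lie beside Siglecg and this was the longest stretch shared between the windows (Cd33 chr7:43533301-43533340, minus; Siglecf chr7:43351302-43351340, plus).
Cd33: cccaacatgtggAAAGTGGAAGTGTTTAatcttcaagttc
Siglecf: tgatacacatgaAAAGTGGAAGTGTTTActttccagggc
Only these 2 of 27025 genes (0.0074%) held the stretch within 250 bases upstream.

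The libraries held 11260410 to 29771983 counts, with a median of 18342645. Tyrobp itself, at normalized counts of 3650 to 8130 in the 10 samples of WT and Q175, was at 176 to 410 in the 8 samples of the Tyrobp-KO groups, which matched the labels. The summed level of 15 microglial markers was 238805 to 478417 normalized counts per sample. Other cells were also present: astrocyte markers ranged from 8990 to 112851 in sum and oligodendrocyte markers from 27756 to 117522. A score averaging astrocyte, neuron and oligodendrocyte markers was highest in Q175 replicate 14 (1.44), Tyrobp-KO replicate 20 (1.20) and Q175;Tyrobp-KO replicate 5 (1.12), against -1.02 to 0.79 in the other 15. WT replicates 7 and 8 stood apart from the other 3 WT samples, with Tyrobp at 4252 and 3650 rather than 7307 to 8130.

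The 5 members covered a wide range of levels. Per kb of exon, the mean over 18 samples was 3996 normalized counts for Siglech, 1528 for Cd33, 381 for Siglece, 16.2 for Siglecg and 7.61 for Siglec1. Among 18613 expressed genes these levels were at the 99.6th, 98.8th, 91.6th, 21.7th and 11.6th percentile. The order Siglech, Cd33, Siglece held in 18 of 18 samples, and these 3 were above the remaining pair in every sample. Siglecg and Siglec1 were not separated in the same way, since Siglecg was the higher per kb in 14 of 18.

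**Figure D1:**
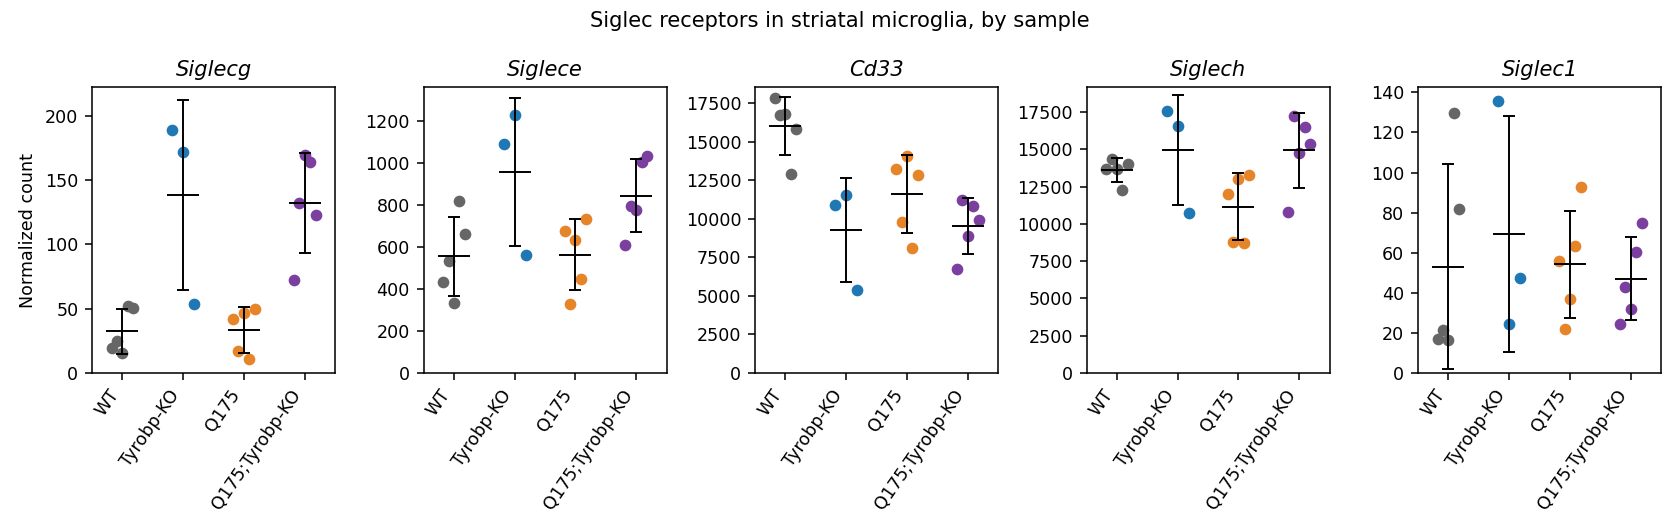
Normalized counts of the 5 Siglec genes (vertical axes, each from 0, with its own scale) in the 4 groups. Points are samples, the long bar is the group mean and the error bar the SD (n = 5, 3, 5 and 5). For Siglecg every sample of the 2 Tyrobp-KO groups, from 53.6 upward, lies above every sample of the other 2 groups, which reach 52.1.

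Siglecg was the member with a difference past the main edgeR test. It had normalized counts of 19.6, 24.9, 15.2, 52.1 and 50.4 for WT replicates 1, 2, 6, 7 and 8. In Tyrobp-KO replicates 15, 19 and 20 it had 189, 172 and 53.6. The first 2 Tyrobp-KO samples stood far above WT, and the third was just above the highest WT sample.

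In Q175 replicates 3, 4, 9, 14 and 17 Siglecg had 42.2, 16.9, 46.7, 10.7 and 49.6 normalized counts, 4 of them within the WT range and replicate 14 below it. In Q175;Tyrobp-KO replicates 5, 11, 12, 13 and 16 it had 72.6, 132, 169, 164 and 123. All 5 were above all 5 Q175 samples. The group means were 32.4 ± 17.5 in WT (SD, n = 5), 138 ± 73.9 in Tyrobp-KO (SD, n = 3), 33.2 ± 18.05 in Q175 (SD, n = 5) and 132 ± 38.9 in Q175;Tyrobp-KO (SD, n = 5). The raw counts behind them ran from 9 to 267, so the lowest samples rested on few reads. Because the samples are bulk, more cells with the transcript and more transcript per cell cannot be told apart here, for Siglecg or any other member.

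Over both Htt genotypes Siglecg was higher without Tyrobp by 1.99 ± 0.33 on the log2 scale (edgeR quasi-likelihood, adjusted p = 0.0102 over 18613 genes), with 80 of 80 sample pairs in that direction. It was 1 of 9 genes that rose past the adjusted threshold of 0.1, which is 0.0484% of genes tested, and ranked 15th by p among all. It was also 1 of 4 genes, 0.0215% of those tested, whose 8 samples without Tyrobp all lay above the 10 with it in TMM-scaled counts. The other 3 were Lgi4, Zfp14 and Khdrbs3, named after their values were seen, of which Lgi4 and Zfp14 are on chromosome 7. Of the 9 genes called higher, Siglecg among them, 5 are on chromosome 7, and of the 28 called lower 3 are. For Siglecg the pairwise comparisons, which use the same samples, each gave a difference of like size. Tyrobp-KO was above WT by 2.09 ± 0.50 (edgeR adjusted p = 0.565; DESeq2 adjusted p = 0.0340), with 15 of 15 pairs higher. Q175;Tyrobp-KO was above Q175 by 1.96 ± 0.39 (edgeR adjusted p = 0.368; DESeq2 adjusted p = 0.000407), with 25 of 25 pairs higher. Neither pairwise difference thus passed with edgeR, which called 0.0222% of all genes in the first comparison and 0.0111% in the second. Both passed with DESeq2, the tool of the study, which called 0.932% and 0.227%. With sex as a term in DESeq2 the first no longer passed (DESeq2 adjusted p = 0.328), while the second did (DESeq2 adjusted p = 0.0138). Groups without overlap in the upward direction made up 2.18% of genes for Tyrobp-KO against WT and 0.46% for Q175;Tyrobp-KO against Q175.

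The size of the Tyrobp difference was tested between the Htt genotypes as well. For Siglecg this interaction was -0.05 ± 0.65 on the log2 scale (edgeR adjusted p = 0.989), an error that leaves room for a difference in either direction. Within females, Siglecg was 53.6 to 189 in 4 samples without Tyrobp and 10.7 to 52.1 in 5 with it. Within males it was 132 to 172 in 4 and 15.2 to 50.4 in 5. The lack of overlap within each sex follows from the separation of all samples given above, so it is no separate result. With sex as a term the pooled difference was 1.97 (edgeR adjusted p = 0.0146).

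Siglecg also moved with the microglial marker level within groups, with r = 0.81 over 18 samples after group means were removed. The geometric mean of the 15 microglial markers was 17763 and 18905 in the high Tyrobp-KO samples and 11578 in replicate 20, where Siglecg was lowest. With that marker level as a term in the fit, the pooled difference of Siglecg was 1.39 (edgeR adjusted p = 0.0192). Without Tyrobp-KO replicate 20 it was 2.22 (edgeR adjusted p = 0.00476), and without WT replicates 7 and 8 it was 2.33 (edgeR adjusted p = 0.00879). Of the 15 markers, 13 were themselves above 0 in the pooled contrast, with a median of 0.18 and none called. Fits with the marker level as a term may thus also remove part of a Tyrobp difference, for Siglecg and the other members.

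**Figure D2:**
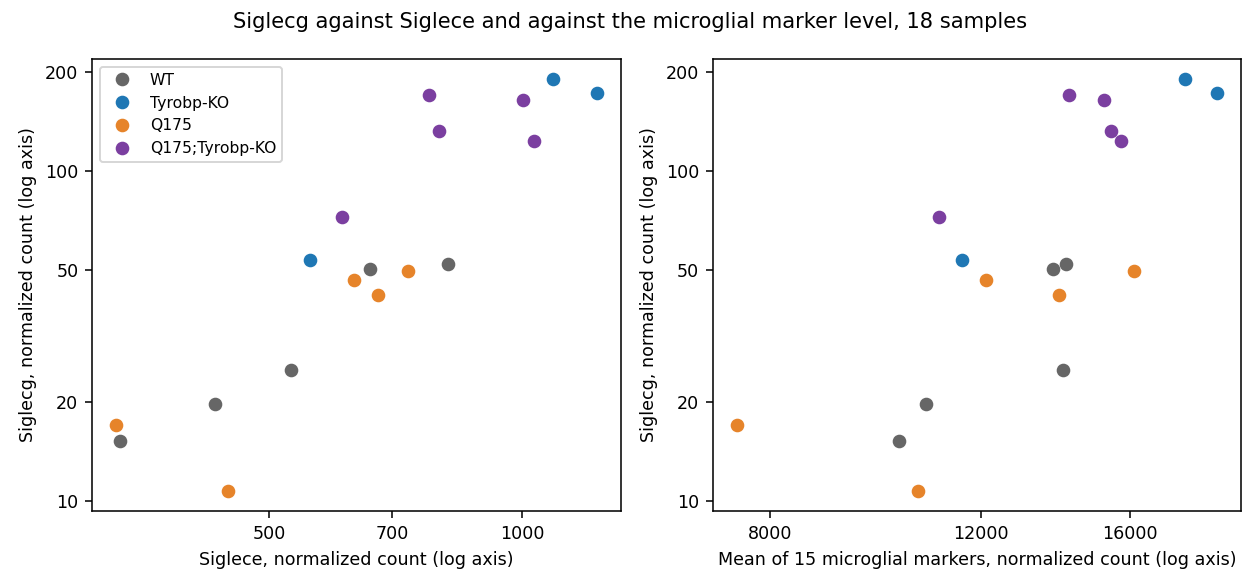
Siglecg (vertical axes, normalized count, log scale) against Siglece (left, log scale) and against the geometric mean of 15 microglial markers (right, log scale), 1 point per sample, coloured by group. Siglecg tends to be low where the other measure is low, and at like values of the horizontal axis the Tyrobp-KO samples lie above the samples with Tyrobp.

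B cells, which carry Siglecg, were looked for by 10 markers. Summed, these were at 3726 to 7838 normalized counts in WT, 4348 to 8675 in Tyrobp-KO, 2760 to 6658 in Q175 and 4679 to 8191 in Q175;Tyrobp-KO. Most of it was Ighm and Cd37, while the defining markers Pax5 and Ms4a1 were at or near 0. Pax5 reached at most 6.89 normalized counts and was at 0 in 8 of 18 samples, and Ms4a1 reached at most 8.25 and was at 0 in 3. Of the 10, 4 were tested over both Htt genotypes and none was called by edgeR or DESeq2, with all 4 above 0 in difference. Of these, Cd79b, a subunit of the B cell receptor, was at 115 to 327 normalized counts over the 18 samples and Ighd at 88.9 to 380. Cd79b reached an unadjusted p under 0.05 in the pooled contrast, and Ighm and Ighd did so in Q175;Tyrobp-KO against Q175, all higher without Tyrobp. The part of B cells in the Siglecg difference was not tested.

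Siglece, an inhibitory Siglec of neutrophils, monocytes and microglia, was higher in value without Tyrobp but did not pass the edgeR test. It had normalized counts of 431, 531, 332, 815 and 658 for WT replicates 1, 2, 6, 7 and 8, against 1087, 1227 and 559 for Tyrobp-KO replicates 15, 19 and 20. In Q175 replicates 3, 4, 9, 14 and 17 it had 674, 328, 631, 446 and 732. In Q175;Tyrobp-KO replicates 5, 11, 12, 13 and 16 it had 610, 796, 775, 1004 and 1034. The groups with and without Tyrobp overlapped, mainly through Tyrobp-KO replicate 20, Q175;Tyrobp-KO replicate 5 and WT replicate 7.

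Group means of Siglece were 554 ± 190 in WT (SD, n = 5), 958 ± 352 in Tyrobp-KO (SD, n = 3), 562 ± 169 in Q175 (SD, n = 5) and 844 ± 176 in Q175;Tyrobp-KO (SD, n = 5). The pooled difference was 0.64 ± 0.19 on the log2 scale, with 68 of 80 pairs higher (edgeR adjusted p = 0.282; DESeq2 adjusted p = 0.0854, and 0.101 with sex as a term). DESeq2 called 1.1% of all genes in this contrast, and Siglecg, Cd33 and Siglece among the 5 members. Tyrobp-KO against WT gave 0.78 ± 0.31 (edgeR adjusted p = 0.660) and Q175;Tyrobp-KO against Q175 gave 0.58 ± 0.21 (edgeR adjusted p = 0.533). Siglece depended on 1 library and on the marker level: without Tyrobp-KO replicate 20 the pooled difference was 0.82 (edgeR adjusted p = 0.0700), and with the microglial marker level as a term it was 0.27 (edgeR adjusted p = 0.842). Among the 15939 genes compared, Siglece was the gene whose log2 level was most like that of Siglecg over the 18 samples (Pearson r = 0.903). After group means were removed r was 0.88, and r of Siglece with the mean microglial marker level was 0.92 on the same footing. These are descriptions over samples that share library depth and cell yield. Of 10 markers of monocytes and neutrophils, 9 were above 0 in the pooled contrast with a median of 0.59, none was called by edgeR or DESeq2, and Ly6c2 and Plac8 had an unadjusted p under 0.05. In Tyrobp-KO against WT 9 of the 10 were above 0 with a median of 1.10. Their summed level was 106 to 3597 normalized counts in WT, 1055 to 3845 in Tyrobp-KO, 328 to 1142 in Q175 and 423 to 1626 in Q175;Tyrobp-KO, and their part in Siglece was not tested.

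Cd33, the mouse counterpart of the human receptor tied to Alzheimer's disease risk, went the other way in value. Its normalized counts were 17829, 16750, 16838, 12894 and 15851 over WT replicates 1, 2, 6, 7 and 8, against 10932, 11543 and 5396 over Tyrobp-KO replicates 15, 19 and 20. Every Tyrobp-KO sample was below every WT sample, a pattern seen downward in 2.33% of the genes of that comparison. In Q175 replicates 3, 4, 9, 14 and 17 Cd33 had 13250, 9823, 14065, 8108 and 12837, and in Q175;Tyrobp-KO replicates 5, 11, 12, 13 and 16 it had 6738, 11222, 8904, 10852 and 9911. These latter groups overlapped. Astrocyte markers were also higher in value in Tyrobp-KO than in WT, 10 of 10 with a median of 1.08, 6 at an unadjusted p under 0.05 and 1 called by DESeq2.

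The pooled difference of Cd33 was -0.59 ± 0.16, that is 1.51-fold lower without Tyrobp, with 11 of 80 pairs higher (edgeR adjusted p = 0.214; DESeq2 adjusted p = 0.0496). Tyrobp-KO against WT gave -0.80 ± 0.28 (edgeR adjusted p = 0.610), which was -0.45 with the score of astrocyte, neuron and oligodendrocyte markers as a term (edgeR adjusted p = 0.677), and Q175;Tyrobp-KO against Q175 gave -0.30 ± 0.19 (edgeR adjusted p = 0.534). The interaction, fitted over all 18 samples, was 0.58 ± 0.31 (edgeR adjusted p = 0.716), so it was not shown that the 2 differ, and it was 0.29 without Tyrobp-KO replicate 20 and also 0.29 with sex as a term. In females Cd33 was 5396 to 10932 without Tyrobp and 8108 to 13250 with it. In males it was 8904 to 11543 without Tyrobp and 14065 to 17829 with it. The males with Tyrobp were 4 WT and 1 Q175, and those without it 1 Tyrobp-KO and 3 Q175;Tyrobp-KO. The male ranges thus mix Tyrobp with Htt genotype, and a difference between the sexes was not tested. With the microglial marker level as a term the pooled difference was -0.78 (edgeR adjusted p = 0.0617), and with sex as a term in DESeq2 it was -0.55 (DESeq2 adjusted p = 0.0155). Set against the mean microglial marker level within each sample, the log2 ratio of Cd33 was -1.10 to -0.70 in Tyrobp-KO and -0.13 to 0.72 in WT. It was -0.72 to -0.46 in Q175;Tyrobp-KO and -0.39 to 0.39 in Q175. The share of all genes whose ratios separate in this way was not counted.

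Siglech, which pairs with TYROBP, was the most abundant Siglec and varied least. It had 13671, 14360, 13672, 12243 and 14020 normalized counts for WT replicates 1, 2, 6, 7 and 8, against 17583, 16596 and 10743 for Tyrobp-KO replicates 15, 19 and 20. In Q175 replicates 3, 4, 9, 14 and 17 it had 11979, 8797, 13004, 8719 and 13283, and in Q175;Tyrobp-KO replicates 5, 11, 12, 13 and 16 it had 10767, 17269, 14765, 16513 and 15361. Samples of all 4 groups overlapped, and Siglech transcript remained high with its adaptor gene deleted.

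The pooled difference of Siglech was 0.23 ± 0.12 (edgeR adjusted p = 0.616; DESeq2 adjusted p = 0.417), and Q175;Tyrobp-KO against Q175 gave 0.41 ± 0.17 (edgeR adjusted p = 0.533). With the microglial marker level as a term the pooled difference was 0.06 (edgeR adjusted p = 0.965). After group means were removed, Siglech and Cd33 had r = 0.94 over the 18 samples, against 0.39 before. Plasmacytoid dendritic cells also carry Siglech, and of their 10 markers Klk1 was at 0 in 18 samples, Ly6d and Spib at 0 in 13 each with maxima of 7.11 and 4.01, and Ccr9 at most 5.08. Cd300c reached at most 22.3. Cox6a2 at 12.7 to 57.9, Runx2 at 23.3 to 126 and Pacsin1 at 266 to 1324 were detected in all 18 samples. The summed level of the 10 markers was 15512 to 22666 over the 4 groups, mostly from Lair1 and Tcf4, which microglia and other brain cells also express. The part of these cells in Siglech was not tested.

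Siglec1 had the lowest level of the 5 and varied within groups. It had 16.7, 21.1, 16.2, 130 and 81.7 normalized counts for WT replicates 1, 2, 6, 7 and 8, against 136, 24.1 and 47.5 for Tyrobp-KO replicates 15, 19 and 20. In Q175 replicates 3, 4, 9, 14 and 17 it had 55.8, 22.0, 37.1, 63.2 and 92.7, and in Q175;Tyrobp-KO replicates 5, 11, 12, 13 and 16 it had 24.6, 43.0, 31.7, 60.5 and 75.0. The highest sample of a group was 3.05 to 7.98 times its lowest, and the 2 high WT samples were replicates 7 and 8. The pooled difference was 0.05 ± 0.44 (edgeR adjusted p = 0.987), and at 13 to 122 raw counts changes well above this error could also go undetected. It ranged from -0.41 without Tyrobp-KO replicate 15 to 0.38 without WT replicate 7, and was 0.81 without WT replicates 7 and 8 (edgeR adjusted p = 0.261). Border-associated macrophages, which carry Siglec1, were represented by 10 markers with sums of 168 to 373 in WT, 372 to 434 in Tyrobp-KO, 136 to 669 in Q175 and 137 to 311 in Q175;Tyrobp-KO. Their part in Siglec1 was not tested.

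**Figure D3:**
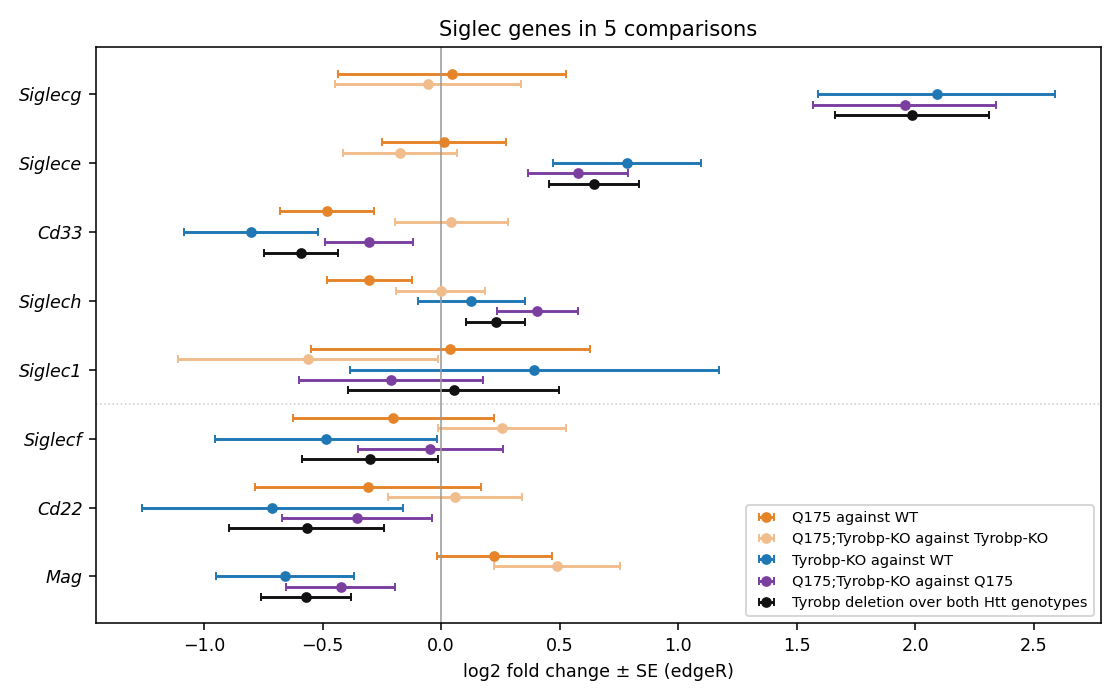
log2 fold change (horizontal axis, edgeR) with its SE for the 5 members and, under the dotted line, Siglecf, Cd22 and Mag, in 5 comparisons. Siglecg stands at 1.96 to 2.09 in the 3 comparisons that involve Tyrobp deletion and near 0 in the 2 that involve Q175.

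Q175 moved no member past the test. Q175 against WT gave 0.04 ± 0.48 for Siglecg, 0.01 ± 0.26 for Siglece, -0.48 ± 0.20 for Cd33, -0.30 ± 0.18 for Siglech and 0.04 ± 0.59 for Siglec1, with edgeR adjusted p of 0.685 for Cd33 and 0.941 or more for the other 4. In this comparison edgeR called 0 of 18266 genes (0%), with 1140 at an unadjusted p under 0.05 (6.24%), and DESeq2 called 234 genes (1.28%), none of them a member. WT held 4 males and 1 female and Q175 1 male and 4 females, so sex and Q175 were largely confounded. With sex as a term the differences were -0.26 for Cd33 and -0.17 for Siglech, and DESeq2 called 0 genes in place of 234. Among mice lacking Tyrobp, Q175;Tyrobp-KO against Tyrobp-KO gave -0.05 ± 0.39 for Siglecg and 0.04 ± 0.24 for Cd33, again not past the test (edgeR adjusted p = 0.967 and 0.957). There edgeR called 0% of genes and DESeq2 3.84%, with no member among them. The interaction was called for 0% of genes by edgeR and 0.0107% by DESeq2, again with no member. Leaving out WT replicates 7 and 8 moved the Q175 difference of Siglec1 to 1.53 and of Siglecg to 0.69 (edgeR adjusted p = 0.357 and 0.583). The astrocyte markers were higher in value in Q175 than in WT, 10 of 10 with a median of 1.28 9 at an unadjusted p under 0.05 and 6 called by DESeq2 without sex as a term. With the score of astrocyte, neuron and oligodendrocyte markers as a term, Q175 against WT was -0.11 for Cd33, -0.13 for Siglech and 0.63 for Siglecg, none past the test (edgeR adjusted p = 0.999 for each).

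The chromosome 7 genes around Siglecg were compared in the same pooled contrast. Within 1 Mb, 25 genes besides Siglecg were tested, of which edgeR called 1, against 0.199% of all genes. That gene was Klk8, a secreted serine protease gene of the kallikrein cluster, at -1.53 ± 0.18 (edgeR adjusted p = 0.000676). An unadjusted p under 0.05 was reached by 7 of the 25 (28%), against 9.19% of all genes. DESeq2 called 5 of the 25, against 1.1% of all genes. These were Klk8, the transcript 2310002F09Rik (-1.26 ± 0.34), Cd33, Siglece and the zinc finger gene Zfp658 (0.60 ± 0.14). The differences ran in both directions among close neighbours, 8 of 25 being above 0. Cd33 and Siglece, 121 and 242 kb from Siglecg by gene centre, had opposite signs, and Siglecf, at -57.8 kb on the other side, had -0.30 ± 0.29 (edgeR adjusted p = 0.815). The samples without Tyrobp share the knocked-out allele and whatever chromosome 7 sequence was inherited with it, and these cannot be told apart in this design.

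**Figure D4:**
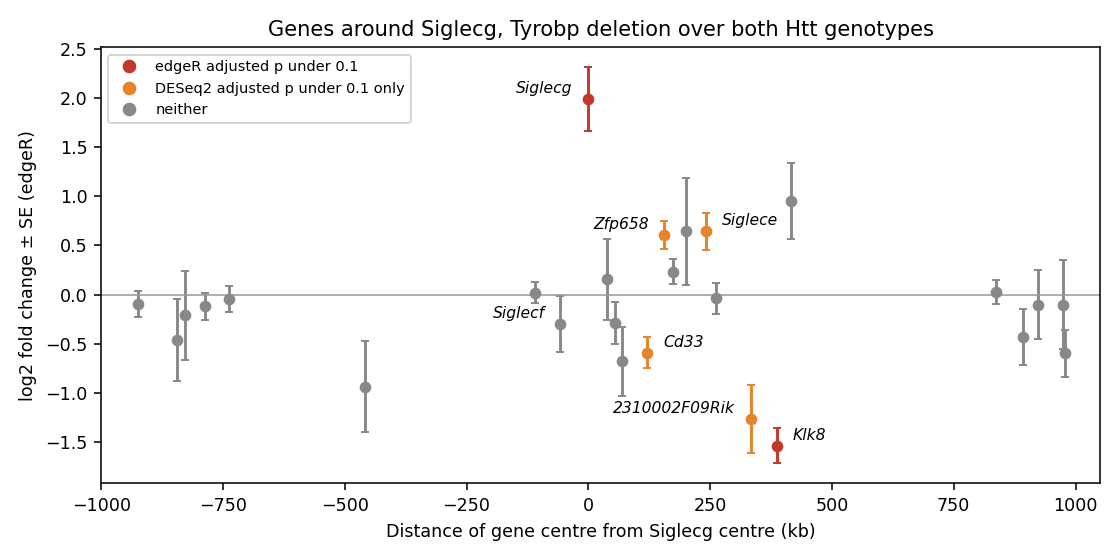
Pooled log2 fold change for Tyrobp deletion (vertical axis, edgeR, with SE) of Siglecg and 25 genes within 1 Mb, by distance of gene centres in kb (horizontal axis). Red marks genes called by edgeR (Siglecg and Klk8), orange those called by DESeq2 alone, grey the rest.

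Other Siglec genes on chromosome 7 did not follow Siglecg. Cd22, the B cell Siglec 0.448 Mb from Tyrobp, was at -0.57 ± 0.33 (edgeR adjusted p = 0.646), and Mag, the Siglec of myelin made by oligodendrocytes, 0.482 Mb from Tyrobp, at -0.57 ± 0.19 (edgeR adjusted p = 0.337). Exons of Cd22 overlap those of Gm29439 on the other strand, and the libraries do not keep the strand. Of the 50-base stretches of Cd22, 7.84% also occur in other genes. Reads of Cd22 were thus less clearly assignable. Cd22 was another gene that was high in WT replicates 7 and 8, at 452 and 444 against 71.1 to 209 in the other 3. Siglec15, which also pairs with TYROBP, had 1 count in 1 of 18 libraries and was not tested. A count of 0 in the other 17 allows up to 3 counts each, or 1.90 to 5.08 normalized counts.

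Partners and ligands of the Siglecs were counted in lists. Of 8 adaptors and kinases, edgeR called 1 in the pooled contrast, Tyrobp itself (lower). Hcst, the DAP10 adaptor encoded next to Tyrobp, was at 0.67 ± 0.22 and Syk at 0.26 ± 0.26, neither past the test (edgeR adjusted p = 0.344 and 0.827). Of 6 inhibitory effectors, among them Ptpn6 at 0.23 ± 0.20, none was called, and the median difference of the list was 0.21 against -0.02 over all genes. Of 4 protein ligands none was called: Cd24a, the partner of Siglecg, was at 0.12 ± 0.31 and Cd52 at -0.69 ± 0.24 (edgeR adjusted p = 0.943 and 0.359).

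Enzymes that make or remove sialic acid likewise gave no call by edgeR or DESeq2 in the pooled contrast, with 5 of 7 synthesis genes and 10 of 10 removal genes tested. Outside these lists stands St8sia6, a sialyltransferase whose disialic acid products can be bound by Siglece, named here with earlier results of these data known. St8sia6 was at 188 to 866 normalized counts in the 10 samples with Tyrobp and 38.9 to 83.7 in the 8 without, and fell by 2.86 ± 0.29 on the log2 scale (edgeR adjusted p = 8.38e-05). Its exons overlap those of Gm37126 on the other strand, which these libraries do not tell apart. Of 9 other inhibitory receptors of myeloid cells edgeR called none, and DESeq2 called Lilrb4a (-1.43 ± 0.36, edgeR adjusted p = 0.208; DESeq2 adjusted p = 0.0216). Of 15 interferon response genes, 15 were above 0 in the pooled contrast with a median of 0.73, against -0.02 over all genes. EdgeR called none and DESeq2 called Ifi44. An unadjusted p under 0.05 was reached by 9 of the 15, all higher. Over all 18613 genes 1711 did so (9.19%), 270 of them higher. The part of interferon in the members was not tested.

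The genes most like each member over the 18 samples differed between members. Siglecg was followed, after Siglece, by Batf3 (r = 0.897), a transcription factor of dendritic cells, and Arsb (0.882), a lysosomal sulfatase. Siglece was most like Tm6sf1 (0.967), Ogfrl1 (0.961) and Slc2a5 (0.951), of which Slc2a5 is a fructose transporter that marks microglia. Siglech was most like Mplkip (0.959), Irgm2 (0.954) and Cebpg (0.949), Cd33 most like Ddb2 (0.846), Vps13c (0.833) and Cyb561a3 (0.825), and Siglec1 most like Ddx54 (0.882), Jun (0.843) and Sdc3 (0.840). No gene was shared between these lists.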

How the data were processed

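RNA of microglia isolated with CD11b beads was sequenced after SMART-Seq v4 amplification, with libraries that do not keep the strand. The authors used STAR for alignment to GRCm38 and featureCounts for gene counts; the labels' processing notes name GRCh38, and the gene identifiers all match GENCODE M21 for mouse. The deposited values are raw counts per gene, and 2 of 20 columns with no sample in the labels were not used. The members and gene lists were chosen with earlier results of these data known.

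Genes reaching 1 CPM in any sample of a fit were tested with the quasi-likelihood test of edgeR 4.0.16 (R 4.3.3, TMM scaling), with Benjamini-Hochberg adjustment over all genes tested and a threshold of 0.1. DESeq2 1.42.0, the tool of the study, was the alternative. Pairwise comparisons used the samples of both groups; the pooled contrast and the interaction used all 18. Errors of fold changes are SE. Normalized counts are counts scaled by TMM to the mean library, per kb where genes are compared. Genes named are the members, other Siglecs, list genes called or given as examples, called genes within 1 Mb of Siglecg, and the 3 genes most correlated with each member. The fits were tested on simulated data. The most similar samples, Q175;Tyrobp-KO replicates 13 and 16, differed by more than counting noise. The level of 1 listed marker is not reported here.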

Additional observations from a re-analysis of the deposited data

How the results depend on the processing

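The rise of Siglecg over both Htt genotypes kept its direction and passed the threshold in 28 of 28 alternatives, with log2 differences of 1.39 to 2.33, 1.84 to 2.22 when 1 library was left out, and adjusted p of 9.91e-07 (DESeq2) to 0.0553 (edgeR, without Tyrobp-KO replicate 15). The pairwise differences of Siglecg passed with DESeq2 and, for Q175;Tyrobp-KO against Q175, with DESeq2 and sex as a term (DESeq2 adjusted p = 0.0138), but with no edgeR setting. The separation of all samples without Tyrobp from all samples with it was counted with TMM scaling only, and it does not hold by total counts. No paired analysis was possible because the groups share no replicate numbers. Fits with the microglial marker level as a term, or without WT replicates 7 and 8, were added after the data were seen.

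In the pooled contrast the main fit called 1 member and 37 of 18613 genes. DESeq2 called 3 members and 204 genes, and with sex as a term 2 members and 201 genes. With 1 library left out 1 to 2 members were called. The 2 came without Tyrobp-KO replicate 20, where 592 genes were called. With the microglial marker level as a term 2 members were called, and the count over all genes for that fit is not given here. In Tyrobp-KO against WT DESeq2 called 1 member and 168 genes, against 0 and 4 with edgeR. In Q175;Tyrobp-KO against Q175 DESeq2 called 1 member and 41 genes, and with sex as a term 1 and 18, against 0 and 2 with edgeR. Neighbours of Siglecg called in the pooled contrast numbered 5 with DESeq2, which called 1.1% of all genes, against 1 with edgeR, which called 0.199%.

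Over all genes, DESeq2 called 234 in Q175 against WT (edgeR 0), 168 in Tyrobp-KO against WT (edgeR 4), 41 in Q175;Tyrobp-KO against Q175 (edgeR 2), 680 in Q175;Tyrobp-KO against Tyrobp-KO (edgeR 0), 204 in the pooled contrast (edgeR 37) and 2 in the interaction (edgeR 0). With sex as a term in DESeq2 these were 0, 38, 18, 358, 201 and 2. For Tyrobp-KO against WT, edgeR called 15 without a filter, 0 with the non-microglial score, 8 in 1 fit over all groups, 511 with the microglial marker level and 2 to 8 with 1 library left out. For Q175;Tyrobp-KO against Q175 it called 9 without a filter, 1 with sex, 1 with the non-microglial score, 1 at an FDR of 0.05, 14 in 1 fit over all groups, 4 with the microglial marker level and 1 to 5 with 1 library left out. With the microglial marker level, edgeR called 3237 in Q175;Tyrobp-KO against Tyrobp-KO. Leaving out 1 library gave 22 to 592 in the pooled contrast, the highest without Tyrobp-KO replicate 20, and 83 without Q175 replicate 17. The cause of these shifts was not tested. Siglecg and Siglec1 rest on few reads, which limits what could be detected for them.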
